A study of Saccharomyces cerevisiae with 4 samples.

Results

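COS1 to COS8 are 8 of the 6002 protein-coding genes annotated on the 16 nuclear chromosomes of budding yeast. They were taken by symbol, each with 3 kb on both sides (its window), and every peak touching such a window was listed for 3 chromatin immunoprecipitations (IPs) followed by sequencing. The peak lists came from an anti-HA IP of a strain carrying HA-tagged Sir2 (LRY1926), an anti-HA IP of a strain carrying HA-tagged Hst1 (LRY0558), and a mock IP, in which this antibody was used on the parental strain (LRY1009), where neither protein is labelled as tagged. Cells of all strains were in early log phase, at 30 °C in YPD (a rich medium with glucose), and were crosslinked with dimethyl adipimidate and then formaldehyde. A genomic input of the parental strain was not analysed here. Each IP had 1 list, of 159 peaks for Sir2, 692 for Hst1 and 3 for the mock IP, so no value below has a replicate check and none was tested. The lists hold no read counts, and the sequencing depth is unknown.

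COS genes encode membrane proteins of the DUP380 family, which help send plasma membrane proteins through multivesicular bodies to the vacuole for breakdown. Most of the family sits near chromosome ends. Sir2 is the NAD+-dependent histone deacetylase of the SIR complex, which is recruited at yeast telomeres and at X elements, sequences found at every chromosome end, and which can spread along neighbouring nucleosomes and silence genes there. Hst1 is the closest relative of Sir2 in yeast and acts mainly with the DNA-binding protein Sum1 as a repressor at promoters. Many chromosome ends also carry Y' elements, which encode the YRF1 helicases. COS genes and the sequences around them are repeated at many ends, so short reads may have been placed at the wrong copy.

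The 8 genes were alike in length (1140 to 1152 bp) and in orientation. With the strand read from the W or C of the systematic name, the start of all 8 faced its own chromosome end, while 44 of the 122 protein-coding genes within 10 kb of an end, the 8 included, were oriented that way (36.1%). COS2 (YBR302C, II, 810340 to 811479), COS5 (YJR161C, X, 742848 to 743999) and COS7 (YDL248W, IV, 1802 to 2953) lay close to an end, with 1705, 1752 and 1801 bp between gene and end. COS8 (YHL048W, VIII, 6401 to 7546) and COS4 (YFL062W, VI, 6426 to 7565) had 6400 and 6425 bp between gene and end. COS3 (YML132W, XIII, 7244 to 8383) had 7243 bp. COS6 (YGR295C, VII, 1081584 to 1082729) and COS1 (YNL336W, XIV, 8330 to 9475) were the farthest away, at 8211 and 8329 bp. Coordinates are sacCer3. The right ends, those of COS2, COS5 and COS6, were taken as the last annotated or peak-covered base, and a Sir2 peak reached that base on each of the 3, so contact with these ends is no finding.

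Sir2 peaks filled nearly all of the stretch on the end side of the 8 genes and stopped near the start of the gene. All 8 windows had a Sir2 peak, where 5.43% of all protein-coding genes had one in the gene or its 3 kb flanks and 100 of the 122 genes within 10 kb of an end did (82%). The edge of the Sir2 peak that faced the chromosome interior fell between 62 bp short of the gene and 264 bp inside it, a spread of 326 bp among genes whose distance to the end ranged from 1705 to 8329 bp. A Sir2 peak edge within 300 bp of the start was found at 8 of 8 of these COS genes. This distance was chosen after the values were seen, and within 100 bp the count was 3 of 8. The share within 300 bp was 0.95% for all protein-coding genes and 18% for genes within 10 kb of an end (22 of 122, the 8 included).

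The place where Sir2 stopped was as follows. In COS1 the Sir2 peak (XIV, 4761 to 8593) covered 264 bp of the gene. In COS2 the peak (II, 811279 to 813184) covered 201 bp, and in COS7 (IV, 1 to 1996) it covered 195 bp. These are the 3 genes into which Sir2 reached farthest. In COS5 the peak (X, 743825 to 745751) covered 175 bp, and in COS3 (XIII, 1 to 7413) it covered 170 bp. COS8 was covered over 66 bp by a peak from 2697 to 6466 on VIII. At COS4 and COS6 the peaks (VI, 1563 to 6395, and VII, 1082792 to 1086219) ended 30 and 62 bp before the gene.

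Sir2 therefore touched 6 of the 8 genes, against 2.5% of all protein-coding genes and 71 of 122 genes within 10 kb of an end (58.2%). Sir2 peaks covered 5.76% to 23.0% of the length of these 6, with a median of 15.1% over all 8 genes and 1071 of their 9162 bp in total (11.7%). None of the 8 lay whole inside a Sir2 peak, and none held a Sir2 summit. For comparison, 59 of all protein-coding genes lay whole inside a Sir2 peak (0.983%), and 59 held a Sir2 summit (0.983%). Of those within 10 kb of an end, 40 lay whole inside a peak (32.8%) and 9 held a summit (7.38%). The count of 0 summits among 8 genes was not tested against these shares and is not read as a difference. Seripauperin (PAU) genes, which encode cell wall mannoproteins, had 15 of 24 whole inside a Sir2 peak. PAU genes are shorter, with 8622 bp over 24 genes against 9162 bp over the 8 COS genes. Their whole-gene counts are therefore not like for like. Of the YRF1 genes, 8 of 8 had at least 50% of their length under Sir2 peaks, as 0 of the 8 COS genes and 1.48% of all protein-coding genes did. A Sir2 edge within 300 bp of the start was found at 9 of 24 PAU genes (37.5%) and 2 of 8 YRF1 genes (25%), beside 0.95% of all protein-coding genes. The differences between these families and COS1 to COS8 were not tested.

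**Figure D1:**
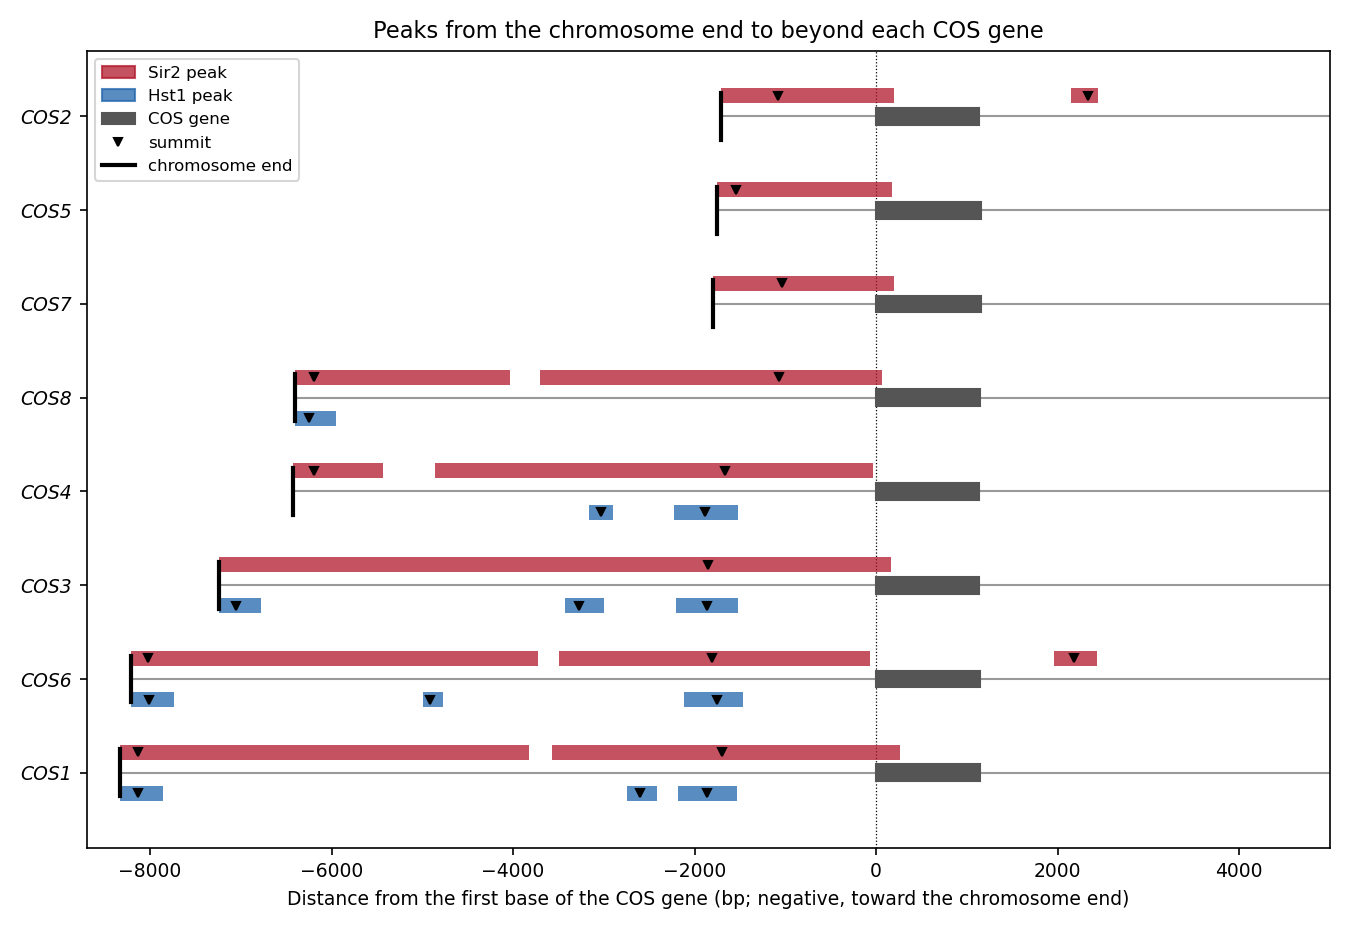
Sir2 peaks (red, above each line) and Hst1 peaks (blue, below it) are drawn from the chromosome end (black bar) to 5 kb beyond the first base of each COS gene (grey box), in bp from that base, with summits as triangles. In all 8 rows the Sir2 peak on the end side stops between 62 bp before and 264 bp inside the gene, and Hst1 peaks lie on the end side only, none of them touching a COS gene.

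The 2 sides of the genes differed in Sir2 cover. On the end side, Sir2 peaks covered 20166 of the 20258 bp within 3 kb of the 8 genes (99.5%), and on the interior side 770 of 24000 bp (3.21%). The sides were not compared for genes near an end without a COS symbol, so the difference is not read as particular to these 8. In the 500 bp directly upstream of the start, which hold the promoter, 3908 of 4000 bp were under Sir2 (97.7%), against 1.54% over all protein-coding genes and 33.7% over the 36 other genes within 10 kb of an end whose start faces it. Of the 8 genes 8 had Sir2 in this stretch, beside a background of 1.92% of all protein-coding genes.

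Read along the gene, Sir2 cover fell at the start. At 100 bp upstream 8 of 8 genes were under a Sir2 peak and at the first base 6 of 8. At 200 bp downstream the count was 2 of 8, and at 300, 500 and 1000 bp downstream 0 of 8. Over all protein-coding genes the share at these positions ran from 1.27% (500 bp downstream) to 1.53% (first base). The 0 of 8 lies near these shares, so it is read only against the upstream counts of the same 8 genes. The 36 other genes facing a nearby end had no such step: 11 of the 35 with that position on the chromosome were covered at 100 bp upstream, 13 of 36 at the first base, 12 at 200 bp and 10 at 1000 bp. In 4 of these 36 (11.1%) a Sir2 edge lay within 300 bp of the start, and they are named here after their values were seen: YFL067W, YGL260W, VBA5 and YNR075C-A, of which VBA5 belongs to a family of vacuolar transporters. YFL067W lies between COS4 and the end of VI, and YNR075C-A lies beside COS10. The whole Sir2 list had 287 peak edges inside the chromosomes, and 67 of them (23.3%) lay within 300 bp of the start of a protein-coding gene. The share of the genome that lies so close to a start was not computed. The 23.3% is therefore not read as a tendency of Sir2 edges to fall at starts.

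**Figure D2:**
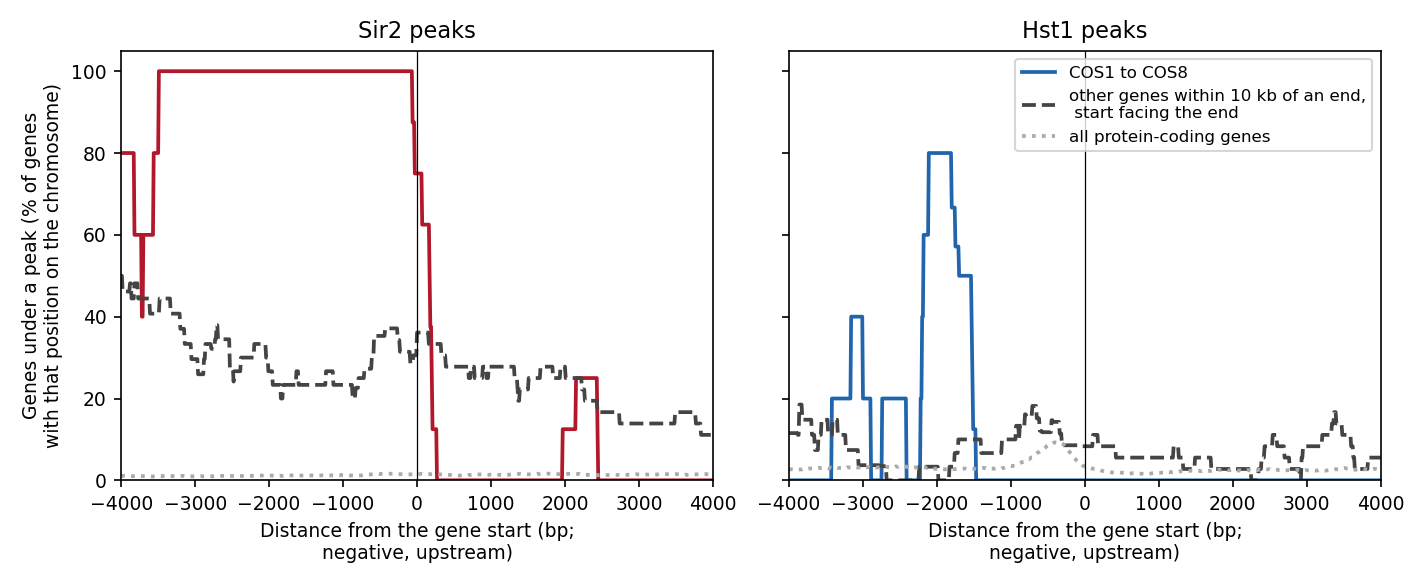
The share of genes under a Sir2 peak (left) or an Hst1 peak (right) is plotted every 10 bp against the distance from the gene start, for COS1 to COS8, for the 36 other genes within 10 kb of an end whose start faces it, and for all 6002 protein-coding genes. For COS1 to COS8 the Sir2 line is at 8 of 8 at 100 bp upstream and at 0 at 300 bp downstream, while the lines of the other genes show no such step at the start.

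The Sir2 peaks next to these genes were long and strong within their list. Over the 8 peaks on the end side, lengths ran from 1906 to 7413 bp with a median of 3599 bp, against a median of 381 bp in the whole list. Their folds, the authors' enrichment at the summit over local background, had a median of 9.74, against 2.48 in the list. COS2 had a fold of 14.5 (rank 4 of 159 in the list), COS7 12.3 (rank 7), COS5 11.1 (rank 8) and COS8 11.1 (rank 9). The folds were lower at COS3, with 8.41 (rank 15), COS6, with 7.50 (rank 21), COS1, with 6.92 (rank 23), and COS4, with 4.58 (rank 44). All 8 had a −log10 q of 129 or more as deposited.

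The Sir2 summits lay well upstream of the genes, between 1035 and 1850 bp from the start. At COS7, COS8 and COS2 the summit was 1035, 1074 and 1084 bp upstream. At COS5 it was 1548 bp upstream and 204 bp from the end of the chromosome. At COS4, COS1, COS6 and COS3 it was 1666, 1702, 1804 and 1850 bp upstream. COS8 thus resembled COS7 and COS2 in the distance of its summit, although its gene lay 6400 bp from the end.

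Between gene and chromosome end, Sir2 cover was complete at 4 genes and nearly so at the others. At COS2, COS3, COS5 and COS7 a single Sir2 peak spanned from the gene to the end as defined here. At the other 4 genes a second Sir2 peak reached the end, with an uncovered gap of 234 bp at COS6, 259 bp at COS1, 334 bp at COS8 and 574 bp at COS4. Sir2 peaks covered 90.6% of the stretch at COS4, 94.8% at COS8, 96.4% at COS6 and 96.9% at COS1. These outer peaks had folds of 8.06 at COS1 (XIV, 1 to 4501), 4.41 at COS4 (VI, 1 to 988), 6.48 at COS6 (VII, 1086454 to 1090940) and 8.22 at COS8 (VIII, 1 to 2362).

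Hst1 peaks lay in 4 of the 8 windows, those of COS1, COS3, COS4 and COS6, and touched none of the genes. Of all protein-coding genes, 35.4% had an Hst1 peak in the gene or its 3 kb flanks and 6.01% had one in the gene; within 10 kb of an end these shares were 63.9% and 27.9%. Read against these shares, a peak in 4 of 8 windows is not a result about the COS genes. Sir2 and Hst1 peaks shared bases in the same 4 windows, against 2.22% of all protein-coding genes and 55.7% of those within 10 kb of an end. The 500 bp upstream of all 8 genes had 0 bp under Hst1, where 12.5% of all protein-coding genes, 27.9% of those within 10 kb of an end and 13.9% of the 36 other genes facing a nearby end had an Hst1 peak in part of this stretch. A count of 0 among 8 genes was not tested against these shares and is not read as a difference. Hst1 covered 15.4% of the end side of the windows and 0% of the interior side. The mock IP had no peak in any of the 8 windows, with 0.167% of all protein-coding genes having one.

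In each of the 4 windows the strongest Hst1 peak sat at nearly the same distance from the COS gene and close to the Sir2 summit. At COS6 (VII, 1084201 to 1084840, fold 4.14, rank 95 of 692) the Hst1 summit lay 1749 bp upstream and 55 bp from the Sir2 summit. At COS1 (XIV, 6144 to 6796, fold 4.31, rank 86) it lay 1860 bp upstream and 158 bp from it. At COS3 (XIII, 5041 to 5724, fold 4.31, rank 87) it lay 1868 bp upstream and 18 bp from it. At COS4 (VI, 4198 to 4899, fold 3.24, rank 165) it lay 1885 bp upstream and 219 bp from it. The 4 peaks were 640 to 702 bp long, and each lay whole inside the Sir2 peak. Weaker Hst1 peaks were also listed in the windows of COS1 (XIV, 5589 to 5919, fold 2.20) and COS4 (VI, 3261 to 3529, fold 1.77).

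The windows differed in length on the end side, and a link between this length and such an Hst1 peak was not tested. At COS2, COS5 and COS7 the chromosome ended 1705, 1752 and 1801 bp upstream of the gene. The strongest Hst1 peaks at the 4 genes with Hst1 had summits 1749 to 1885 bp upstream. The nearest edges of these peaks lay 1471 to 1533 bp from the gene. These edges lay nearer to the gene than the ends at COS2, COS5 and COS7, while the summit distances overlapped with those of the ends. Of the 5 genes with a position 2000 bp upstream on the chromosome, 4 were under an Hst1 peak there, and COS8 was not. The share was 2.80% for all protein-coding genes and 3.33% for the other genes facing a nearby end (1 of 30). This position falls inside the strongest Hst1 peaks already listed, so the count repeats them. The Sir2 folds were 11.1 to 14.5 at COS2, COS5, COS7 and COS8 and 4.58 to 8.41 at the 4 genes with Hst1, a division seen in the data and not tested, in which the members share sequence. At COS2, COS5 and COS7 the Sir2 summit lay 621, 204 and 766 bp from the end as defined here. Whether the nearness of the end bears on the distance between summit and gene was not tested. Beyond its window, COS8 had an Hst1 peak at the end of its arm (VIII, 1 to 454, fold 1.96), and COS2, COS5 and COS7 had no Hst1 peak between gene and end.

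**Figure D3:**
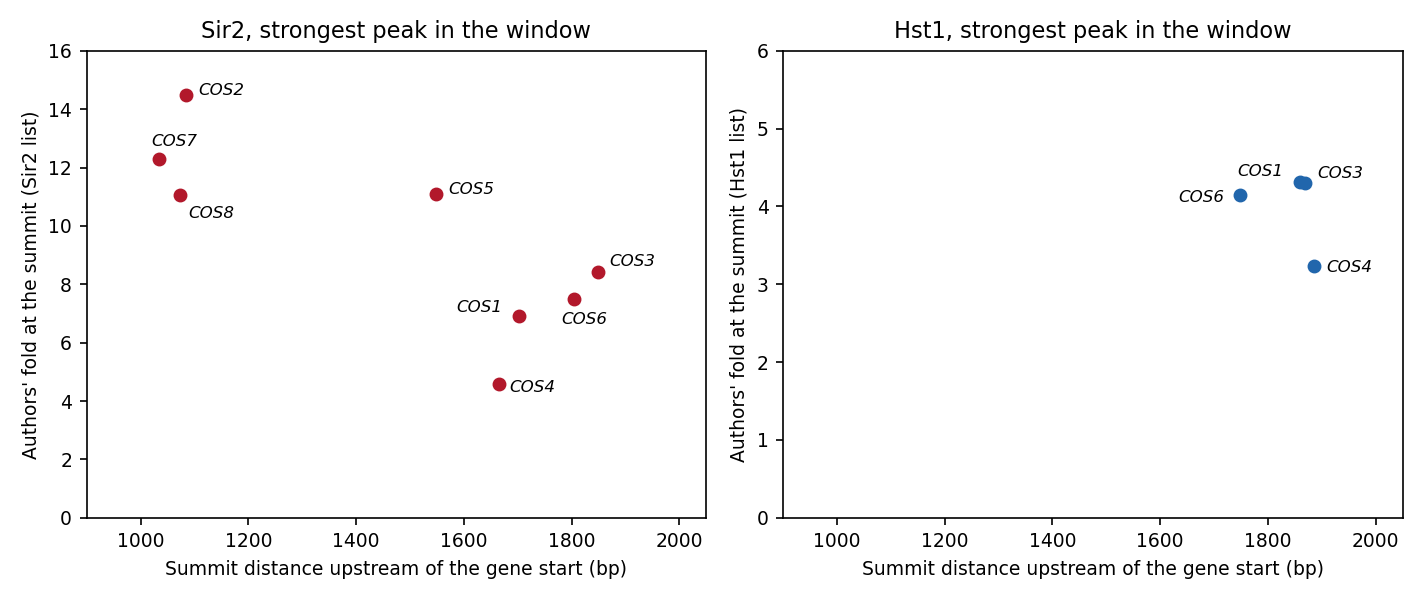
For the strongest Sir2 peak (left, all 8 genes) and the strongest Hst1 peak (right, the 4 genes that had one) in each window, the authors' fold is plotted against the distance of the summit upstream of the COS gene in bp. The folds come from separate peak calls and are not comparable between the panels; COS2, COS5, COS7 and COS8 have Sir2 folds of 11.1 to 14.5, above those of COS1, COS3, COS4 and COS6 (4.58 to 8.41).

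Annotated genes on the end side of the windows were mostly under Sir2. YRF1-6, on the end side of COS1, had 95.5% of its length under Sir2 peaks and 7.63% under Hst1 peaks, and YRF1-3, on the end side of COS6, had 95.9% and 5.90%. YML133C (by COS3), YFL064C (by COS4), YHL049C and YHL048C-A (both by COS8) were covered whole by Sir2, and of these YFL064C had 39.6% and YML133C 10.1% of its length under Hst1. On the interior side, Sir2 touched only a PAU gene in 2 windows and no other gene in the 8 windows. PAU24, 920 bp from COS2, had 76.6% of its length under a Sir2 peak (II, 809034 to 809334, fold 2.88). PAU12, 915 bp from COS6, was covered whole by another (VII, 1080295 to 1080763, fold 3.89). COS2 and COS6 thus each stood between Sir2 peaks, 1005 and 820 bp from the one on the interior side.

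Of the 8 genes, 6 lie in 3 pairs of copied blocks, and the next Hst1 peak toward the interior lay at a similar distance in 2 of the pairs. These neighbours were named after the positions were seen. COS5 and COS7 are both followed, at spacings that match within 1 bp, by a gene for a maltose permease homologue (MPH3 and MPH2, each 3031 bp away), for sorbitol dehydrogenase (SOR1 and SOR2, 5730 and 5729 bp away) and for a hexose transporter (HXT16 and HXT15, 8704 and 8703 bp away). The nearest Hst1 peaks lay in those SOR genes, 5959 bp from COS5 (X, 736175 to 736888, fold 2.37) and 5976 bp from COS7 (IV, 8930 to 9379, fold 2.17). The Sir2 peaks stopped 175 and 195 bp into these COS genes, and the next Sir2 peaks toward the interior lay 58481 bp from COS5 and 122378 bp from COS7.

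COS1 and COS4 are followed by a cyanamide hydratase gene (DDI2 and DDI3, 1976 and 1979 bp away), vitamin B6 genes (SNO2 and SNO3, 2732 and 2735 bp away, then SNZ2 and SNZ3, 3791 and 3797 bp away) and a thiamine pyrimidine synthesis gene (THI12 and THI5, 5356 and 5363 bp away). The next Hst1 peak toward the interior lay 4907 bp from COS1 (XIV, 14383 to 14983, fold 3.71) and 4904 bp from COS4 (VI, 12470 to 13173, fold 3.80), with its summit between the SNZ and THI genes. The next Sir2 peaks were not at matching distances, with 90605 bp from COS1 and 24625 bp from COS4. DDI2, DDI3, SNO2 and SNO3 had no peak in any list. COS2 and COS6 share the block of a PAU gene and a maltase gene (MAL32 and MAL12, 3234 and 3230 bp away), but the next Hst1 peak lay 11148 bp from COS2 and 68863 bp from COS6. In each pair of copies, a peak of either member could hold reads from the other, and the lists cannot tell them apart.

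COS3 and COS8 stood outside these blocks. COS8 is followed by the siderophore transporter gene ARN2, which had no peak, and then by PAU13, where Sir2 (VIII, 11890 to 12341, fold 4.66) and Hst1 (VIII, 11856 to 12083, fold 1.96) both had a peak. COS3 is followed by YML131W, with no peak, and the next Sir2 peak toward the interior lay 176751 bp away.

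The 4 other genes with a COS symbol did not have Sir2 at their start, and none of them was touched by a peak of any list. Of all protein-coding genes, 1.53% had Sir2 at the first base, 2.5% were touched by Sir2 and 6.01% by Hst1. A count of 0 among 4 genes is near these shares and is not read as a difference. COS12 (YGL263W, VII, 2790 to 3932), which also starts toward its end, had 2045 bp between its start and the Sir2 peak at the end (VII, 78 to 744, fold 9.32), and 351 bp of a further Sir2 peak on its interior side, at PAU11 (fold 3.75). COS10 (YNR075W, XIV, 779916 to 781040) points the other way, with its 3′ end toward the chromosome end. Sir2 peaks on that side began 237 bp past COS10 (XIV, 781278 to 781605, fold 2.47) and went on from 781702 to the end (fold 4.20), and an Hst1 peak (XIV, 782215 to 783433, fold 6.83) lay within them. COS9 (YKL219W, XI, 14485 to 15708) had no peak in its window, and its nearest Sir2 peak was 11578 bp away. COS111 (YBR203W, II, 629168 to 631942) lies 181242 bp from an end with no peak in its window. It is named for sensitivity to ciclopirox olamine and is not a member of the membrane protein family.

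The 5 genes without a COS symbol most like COS1 to COS8 were found by the distance to the median of the 8 in 4 percentages, those of the gene body and of the 3 kb flanks under Sir2 and under Hst1. The medians were 15.1% and 49.8% for Sir2 in body and flanks, and 0% and 5.33% for Hst1. AAD3, a putative aryl-alcohol dehydrogenase gene at the right end of III, was nearest, with 14.7% of the body and 35.3% of the flanks under Sir2. VAC17, a vacuole inheritance gene, and TAF2, which encodes a subunit of the general transcription factor TFIID, followed with YEL073C and YIR042C. These 4 had 0.805% or less of the body and 35.2% to 45.4% of the flanks under Sir2. Of the 5 genes, YEL073C alone had Hst1 in its flanks (6.38%). None of the 5 shared a window with a COS gene. The distances of these genes from the median, 15.4 to 21.6 percentage points, lay among or above those of the COS genes themselves, 6.07 to 17.4.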

How the data were processed

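Peak lists of 3 IPs were used, each with its own list. The submitters' processing notes name BWA, MACS2 and the build sacCer3. Versions, cutoffs, the control of each call and any pooling of the 2 technical replicates that the design text mentions per IP were not given in the sources used here. Deposited values, as the authors left them, are the fold enrichment at the summit (a ratio), −log10 p and −log10 q, and a score of 10 times −log10 q. Folds are the authors' own values and were compared only within a list. Peak edges depend on the fragment length and cutoff of the caller, which are unknown.

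Starts were made 1-based, and a summit is the start plus its deposited offset. Genes came from a RefSeq table of R64, the assembly behind sacCer3. A gene was touched by a peak sharing at least 1 bp. Cover was summed with Python 3.11.15, pandas 2.3.3 and NumPy 2.4.6 and checked on planted peaks. With 1 list per IP there was no spread between samples, so counts stand beside the same share of all 6002 genes. The rule for named genes took the 8 members, genes with a COS symbol, genes in the windows touched by a peak and the 5 most like in pattern. Other genes, among them the window genes with no peak, the neighbours in the copied blocks, PAU11, PAU13 and the 4 other genes with a Sir2 edge at the start, were named after their values were seen. Members and lists were chosen with earlier results of these data known. Protein and promoter comparisons were planned and not run, since no sequences were used here.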

Additional observations from a re-analysis of the deposited data

How the results depend on the processing

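Of 166 recomputed counts and medians, 156 were within 1.5 times the value as reported. Many of the 156 could not have moved, so their number does not measure robustness. Among them are mock IP values of 0 and Sir2 values recomputed with only the Hst1 list cut. The 10 values outside that range were as follows. With at least 50% of a gene required, Sir2 covered 0 of the 8 COS genes, and 89 genes in all for Sir2 and 109 for Hst1, against 150 and 361 touched. With 1 kb flanks, 0 windows held a Sir2 summit, since all Sir2 summits lay more than 1 kb from the gene, and 0 were touched by Hst1, held its summit or had both lists sharing bases, since the nearest Hst1 edges lay 1471 to 1533 bp from the gene. With all 12 genes of a COS symbol, the median cover by Sir2 was 2.88%. With only as many Hst1 peaks as the Sir2 list holds, the strongest, Hst1 touched 161 genes. A Sir2 edge within 100 bp of the start, chosen after the values were seen, was found at 3 of the 8 genes. A −log10 q of at least 10, the strongest 50% of each list, merging within 500 bp and removal of peaks at mock IP peaks moved none of the COS counts beyond 1.5 times. The first 2 of these could not drop the Sir2 peaks next to the genes, which had a −log10 q of 129 or more and ranks 4 to 44 of 159. The mock IP had no peak in the windows. With right ends set by annotated genes alone, COS2 and COS5 lay 0 bp from an end. No paired analysis was possible because each IP has 1 list. Depth is unknown, so the absence of a peak does not show the absence of the protein.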
